A study of Ogataea parapolymorpha DL-1 with 4 samples.

Results

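The genes described here are zip1, a gene listed at 0 in both libraries of the met4 mutant, and the genes named for the proteins that work with or against Met4 in budding yeast: MET32, MET30, SKP1 and CDC34. They were taken by gene name, which gave 6 rows (CDC34 names 2) of 5448 in the table. The organism is Ogataea parapolymorpha, strain background DL-1, a yeast that can grow on methanol. All 6 passed the filter of a mean of at least 1 FPKM that left 5342 rows for comparison. RNA was sequenced from 4 samples, 1 per group. They were a met4 mutant (leu2 met4::LEU2) in sulfur-limited B medium, the same mutant in B medium with 0.5 mM cysteine, the wild type (leu2 carrying LEU2) in B medium, and the wild type in B medium with 0.5 mM cysteine. All 4 were grown from an OD600 of 0.1 to 0.3 in rich medium and sampled 2 h after the move to B medium, so no library from before the move is part of the comparison. Both strains carry a leu2 allele and a LEU2 copy, and the labels do not say how many clones of the mutant were used.

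In budding yeast, Met4 switches on the genes that take up sulfate and build methionine and cysteine, but it does not bind DNA well by itself. The zinc finger proteins Met31 and Met32, and Cbf1 with Met28, bring it to its target genes. When cysteine is plentiful, the ubiquitin ligase SCF-Met30 marks Met4 with ubiquitin and shuts it off. In that ligase Met30 is the F-box protein that holds Met4, Skp1 joins the F-box protein to the cullin Cdc53, and Cdc34 is the ubiquitin-conjugating enzyme. Much of this control acts on protein, which RNA levels do not show. Zip1 is the Met4-like bZIP factor (a DNA-binding protein with a leucine zipper) of fission yeast. Its place as the MET4 of this yeast was read from the values at its locus after they had been seen, since no row is named MET4.

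Levels are FPKM as deposited, in which a gene's fragments are divided by its length and by library size. Differences between libraries are given on the log2(FPKM + 1) scale, on which low genes appear to change less than they did, and a gene is called higher or lower at a fold of 2 or more. With 1 library per group there is no replicate spread to set a difference against and no test was made, and depth is unknown because FPKM does not carry it. A value is an average over a culture, so less RNA in every cell and fewer cells with the RNA cannot be told apart. The libraries differed in makeup, with 24.5% and 19.4% of summed FPKM in rows under 400 bases in the mutant (B medium, then with cysteine) and 56.2% and 48.2% in the wild type. Scaling to equal sums (TPM) moved the median difference of all rows by 1.14 between the strains in B medium, by 0.76 between them with cysteine and by -0.44 between the media in the wild type. Ranks and ratios within a library, given below beside FPKM, do not depend on scaling. They do depend on any difference between the libraries that goes with gene length. In B medium the median strain difference was -0.72 over rows of like length to SKP1 and -0.10 over rows of like length to MET30. Levels of genes of unlike length are thus compared only roughly, and ratios of such genes can carry that difference.

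zip1 (HPODL_03459, transcription factor zip1, chromosome IV, 763543 to 764535, plus strand) was listed at 0 FPKM in both mutant libraries, against 485 FPKM in wild-type cells in B medium and 202 FPKM in the wild type with cysteine. Its place as MET4 was read from these values, so the gap between the strains was fixed by that choice. In the wild type zip1 was 2.40-fold higher in B medium than with cysteine, a log2 difference of 1.26. Its rank was also higher there, above 87.9% of the compared rows in B medium and above 76.9% with cysteine. Among all rows 23.6% were at least 2-fold higher in that comparison, and with TPM scaling the difference of zip1 was 0.78, within 2-fold.

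The 0 values reached one row beyond zip1. HPODL_05198 (chromosome IV, 764635 to 764962), which is separated from the end of zip1 by 99 bases and whose product is uncharacterized, was listed at 0 in both mutant libraries, against 2343 and 2757 FPKM in wild-type cells in B medium and with cysteine. These were the only 2 rows at 0 in both mutant libraries with at least 1 FPKM in both wild-type libraries. On the other side, HPODL_03458, separated from the start of zip1 by 226 bases, had 569.98 and 784 FPKM in the mutant in B medium and with cysteine and 590.2 and 846 FPKM in the wild type, with strain differences of -0.05 in B medium and -0.11 with cysteine. The next row after the gap, HPODL_03460 (putative ATPase N2B), had 63.6 and 115 FPKM in the mutant and 21.1 and 114 FPKM in the wild type, so that it was 1.55 higher on the log2 scale in the mutant in B medium and 0.01 higher with cysteine. Farther out, HPODL_03456, TGL1 (a sterol esterase) and HPODL_03461 stayed within 0.5 of the wild type on that scale in both media. These strain differences at the locus are those of the deposited FPKM. TPM scaling, which moved the median of all rows by 1.14 between the strains in B medium, was not tried for these rows. LEU2 (HPODL_02130), a gene of leucine synthesis, had 696 and 810.5 FPKM in the mutant and 403 and 396 FPKM in the wild type. Its strain differences as deposited were 0.79 in B medium and 1.03 with cysteine, where 6.85% of all rows were at least 2-fold higher. Whether its reads came from the leu2 allele or from the LEU2 copy was not tested. In the reverse direction, 3 rows were listed at 0 in both wild-type libraries with at least 1 FPKM in both mutant libraries, one of them the mating-type row MATA1 (HPODL_04024, 37.0 and 38.4 FPKM in the mutant). The strains thus differed at more than zip1, and effects of its loss on the other genes cannot be told apart from effects of those differences.

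**Figure D1:**
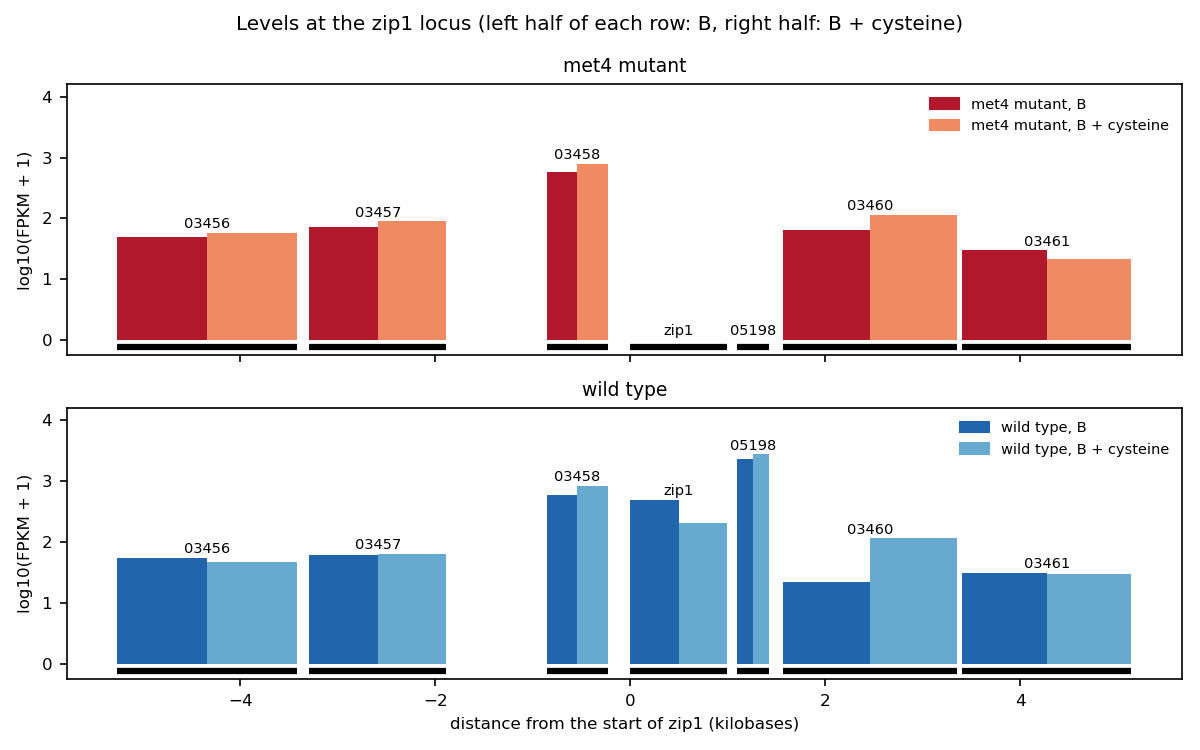
Levels of the rows around zip1, as log10(FPKM + 1), in the met4 mutant (upper plot) and the wild type (lower plot), against distance from the start of zip1 in kilobases. Each row's left part is B medium and its right part B medium with cysteine, 1 library each, and black bars mark the rows, numbered by the end of their locus tag. Only zip1 and HPODL_05198 have no bar in the mutant.

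MET32 (HPODL_01443, transcriptional regulator MET32, chromosome VI, 590451 to 591377, minus strand) had 53.7 FPKM in the mutant in B medium, 34.3 FPKM in the mutant with cysteine, 139 FPKM in wild-type cells in B medium and 17.2 FPKM in the wild type with cysteine. The highest and the lowest level were thus both in the wild type, and both mutant levels lay between them. In the mutant it was 1.55-fold higher in B medium than with cysteine (log2 difference 0.63), while in the wild type it was 7.69-fold higher (2.94), more than 96.6% of all compared rows. Its rank within the library was above 44.4% of rows in the mutant in B medium and 30.5% with cysteine, against 68.1% in the wild type in B medium and 15.4% with cysteine.

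Set between strains, MET32 was 2.57-fold lower in the mutant in B medium (log2 difference -1.36) and 1.94-fold higher in the mutant with cysteine (0.95). Among all rows 24.9% were at least 2-fold lower in the first comparison. That difference was -0.18 with TPM scaling, and the one with cysteine was 1.06 with median-of-ratios scaling and 1.67 with TPM scaling, past 2-fold in both. The response of the mutant minus that of the wild type was -2.31, which is lower than for all but 4.38% of rows and lay between -2.36 and -1.85 over the alternatives tried. These comparisons share libraries: the wild-type library in B medium enters the response of the wild type and the strain difference in B medium.

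MET30 (HPODL_00475, F-box protein MET30, chromosome III, 551483 to 553306, plus strand) had 48.1 FPKM in the mutant in B medium, 186 FPKM in the mutant with cysteine, 133 FPKM in wild-type cells in B medium and 153 FPKM in the wild type with cysteine. On the deposited scale the mutant library in B medium stood apart as the low one, and the other libraries lay close together. In the mutant the level of MET30 in B medium was 3.81-fold below that with cysteine (log2 difference -1.93), at a point that only 3.14% of rows lay below. Among all rows 12.1% were at least 2-fold lower in that comparison, and over the alternatives tried the difference of MET30 lay between -2.04 and -1.83. In the wild type its difference between the media was -0.20. In budding yeast MET30 is itself a gene that Met4 activates.

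Between the strains MET30 was 2.74-fold lower in the mutant in B medium (log2 difference -1.45), and it stood at 0.28 with cysteine. With TPM scaling these differences were -0.27 and 1.07, so that the first was within 2-fold and the second past it. The response of the mutant minus that of the wild type was -1.73 (between -1.75 and -1.34 over the alternatives). The end of MET30 lies 2 bases from that of HPODL_00476 on the opposite strand, which had 26.7 and 32.5 FPKM in the mutant and 115 and 37.9 FPKM in the wild type. The sources used here do not give whether reads were counted by strand, and a part of that row in the value of MET30 was not tested.

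SKP1 (HPODL_00458, named suppressor of kinetochore protein 1, chromosome III, 522300 to 522821, plus strand), which in budding yeast also serves other F-box proteins and the kinetochore, was the most abundant of these genes in 3 of the 4 libraries. It had 442 FPKM in the mutant in B medium, 579.7 FPKM in the mutant with cysteine, 777 FPKM in wild-type cells in B medium and 974 FPKM in the wild type with cysteine. On the deposited scale both mutant levels of SKP1 were below both wild-type levels, an order whose share among all rows was not counted. All its differences stayed within 2-fold: -0.39 between the media in the mutant, -0.33 in the wild type, -0.81 between the strains in B medium and -0.75 with cysteine. The median over rows of like length was -0.72 in B medium and -0.37 with cysteine, and with TPM scaling the strain differences of SKP1 were 0.38 and 0.05, of the opposite sign. Its responses in the strains were close, with -0.07 for the mutant's minus the wild type's.

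Both CDC34 rows are described as ubiquitin-conjugating enzyme E2-34 kDa and lie on chromosome II with 61217 bases between them. Near-identical copies can divide reads between them, and how alike these rows are was not tested, so each row's own value is uncertain. HPODL_04952 (774087 to 774773, minus strand) had 239 FPKM in the mutant in B medium, 321 FPKM in the mutant with cysteine, 192 FPKM in wild-type cells in B medium and 340.4 FPKM in the wild type with cysteine. In both strains its lower level was the one in B medium, by -0.42 on the log2 scale in the mutant and -0.82 in the wild type. The wild-type difference passed 2-fold under 3 of the alternatives that keep the fold at 2 (between -1.28 and -1.02). The ranges of the strains overlap.

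HPODL_05139 (835991 to 836656, plus strand) had 472 FPKM in the mutant in B medium, 467 FPKM in the mutant with cysteine, 217 FPKM in wild-type cells in B medium and 444 FPKM in the wild type with cysteine. On the deposited scale the wild-type library in B medium was the low one here and the other libraries lay together. The media differed by 0.02 in the mutant and by -1.03 in the wild type, just past 2-fold (13.0% of all rows were at least 2-fold lower there). Between the strains the row was 2.17-fold higher in the mutant in B medium (1.12, against 10.5% of all rows at least 2-fold higher) and stood at 0.07 with cysteine. Over the alternatives tried these strain differences rose to as much as 2.30 in B medium and 0.87 with cysteine. The ratio of HPODL_05139 to HPODL_04952 was 1.97 and 1.45 in the mutant in B medium and with cysteine, and 1.13 and 1.30 in the wild type.

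**Figure D2:**
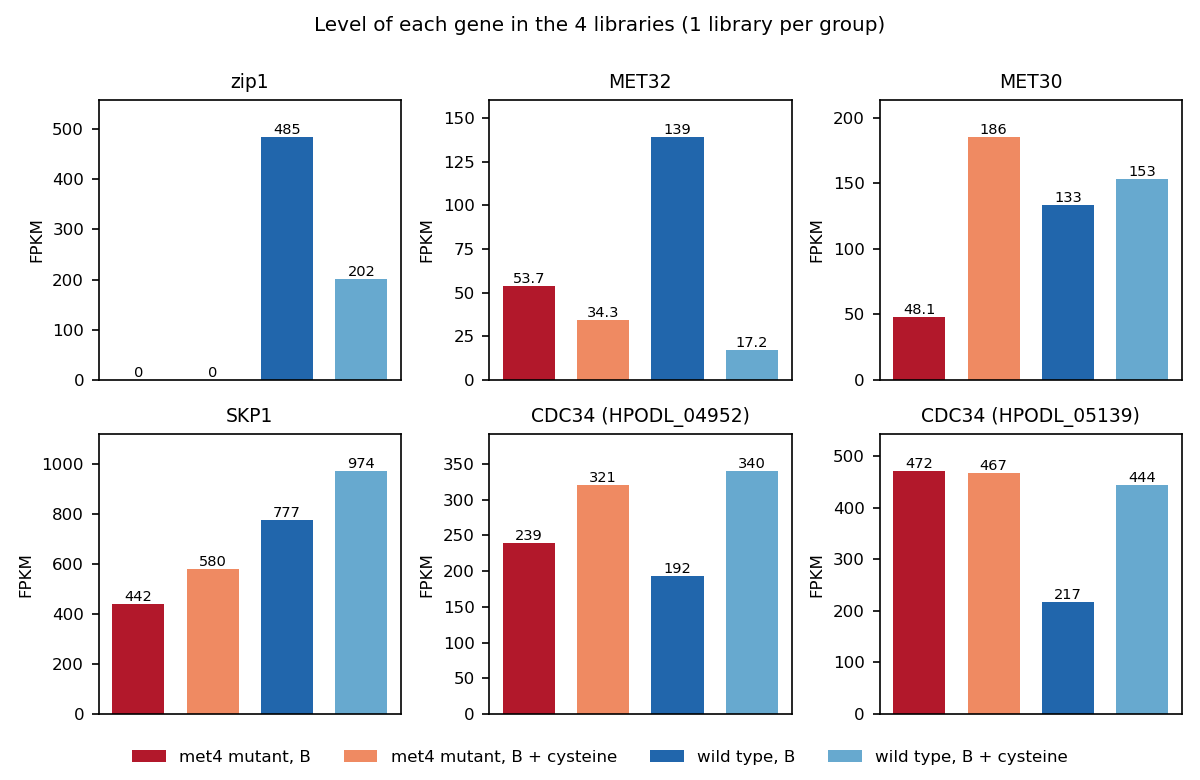
Level in FPKM of each of the 6 rows in the met4 mutant (reds) and the wild type (blues), in B medium (dark) and B medium with cysteine (light), 1 library per bar. zip1 is listed at 0 in the mutant, MET32 has its highest and lowest levels (139 and 17.2 FPKM) in the wild type, MET30 is lowest in the mutant in B medium (48.1 FPKM), and the CDC34 row HPODL_05139 is lowest in the wild type in B medium (217 FPKM).

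Counted together, of the 5 rows with a level in the mutant 1 was lower by 2-fold or more without cysteine and 0 were higher, against 12.1% and 13.3% of all rows (25.4% in either direction). In the wild type 2 of 6 were higher (zip1 and MET32) and 1 was lower (the CDC34 row HPODL_05139), against 23.6% and 13.0% of all rows (36.5% in either direction). Set between the strains without cysteine, 1 of 5 was higher in the mutant and 2 were lower, against 10.5% and 24.9% (35.5% in either direction). With cysteine 0 of 5 were past 2-fold in either direction, against 6.85% higher, 7.41% lower and 14.3% in all. For the response of the mutant minus that of the wild type 1 of 5 was higher and 2 were lower, against 11.2% and 22.2% (33.4% in either direction). With so few rows these shares are not set apart from the background, and zip1 has no fold in 4 of these 5 comparisons because the mutant values are 0. In the authors' deposited table, which marks genes for each of the 4 pairings between a library of one strain and a library of the other at a threshold of 0.05, zip1 was marked in all 4 and the other 5 rows in none. That table marked 11 to 57 of all 5448 rows per pairing, and the sources used here do not give whether its threshold applies to adjusted p-values. HPODL_05198, the neighbour of zip1 also at 0 in the mutant, was marked in all 4 pairings too. Because zip1 was identified from its 0 values in the mutant, its marks add nothing independent to that choice.

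**Figure D3:**
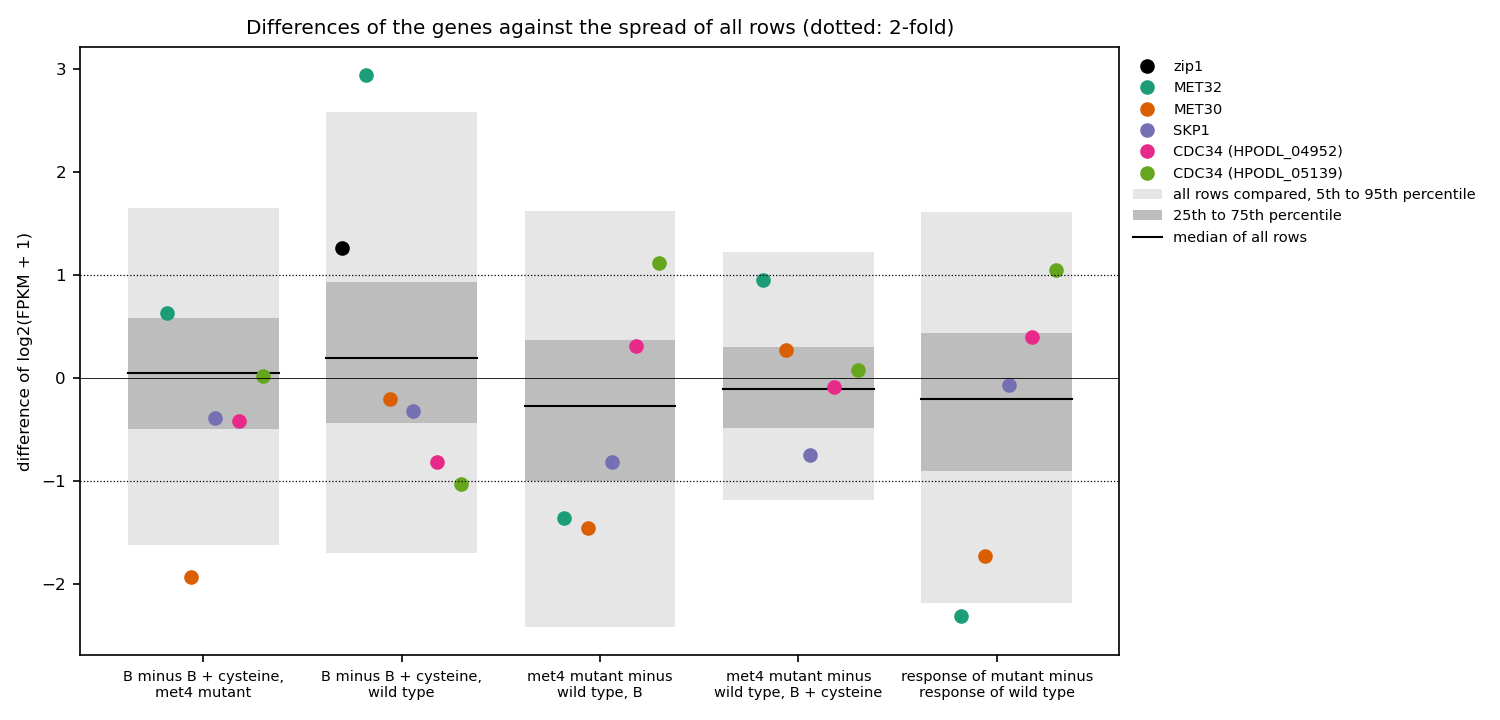
Differences of log2(FPKM + 1) of the 6 rows (coloured points) in the 5 comparisons, over the spread of the 5342 compared rows (pale band from the 5th to the 95th percentile, darker band from the 25th to the 75th, line at the median). Dotted lines mark 2-fold. MET32 lies outside the pale band for the wild type's media (2.94) and for the difference of responses (-2.31), and MET30 for the mutant's media (-1.93), while zip1 has a point for the wild type's media alone.

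In the order of levels, the 2 mutant libraries had the CDC34 row HPODL_05139 and SKP1 at the top in B medium (472 and 442 FPKM) and SKP1 above that row with cysteine (579.7 and 467 FPKM). MET32 and MET30 were the lowest there apart from zip1, with MET32 slightly above MET30 in B medium and far below it with cysteine. In the wild type in B medium the order was SKP1, zip1, both CDC34 rows, MET32 and MET30, and the levels of MET32 and MET30 (139 and 133 FPKM) were close. In the wild type with cysteine the order was SKP1, both CDC34 rows, zip1, MET30 and MET32. No spread over replicates is known, so neighbours in these orders cannot be called different.

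Ratios within a library, chosen after the values had been seen, put the DNA-binding partner against the F-box protein. MET32 stood at 1.12 times MET30 in the mutant in B medium and at 0.185 times with cysteine, and at 1.05 times in the wild type in B medium and 0.112 times with cysteine. The ratio was near 1 in B medium and well under 1 with cysteine in both strains, 6.04-fold apart in the mutant and 9.29-fold apart in the wild type. The genes behind it differed: in the mutant MET30 carried most of the difference between the media (-1.93, with 0.63 for MET32), in the wild type MET32 carried it (2.94, with -0.20 for MET30). Against SKP1, MET30 stood at 0.109 in the mutant in B medium and 0.321 with cysteine, and at 0.172 and 0.157 in the wild type. zip1 stood at 3.64 times MET30 in the wild type in B medium and at 1.32 times with cysteine.

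**Figure D4:**
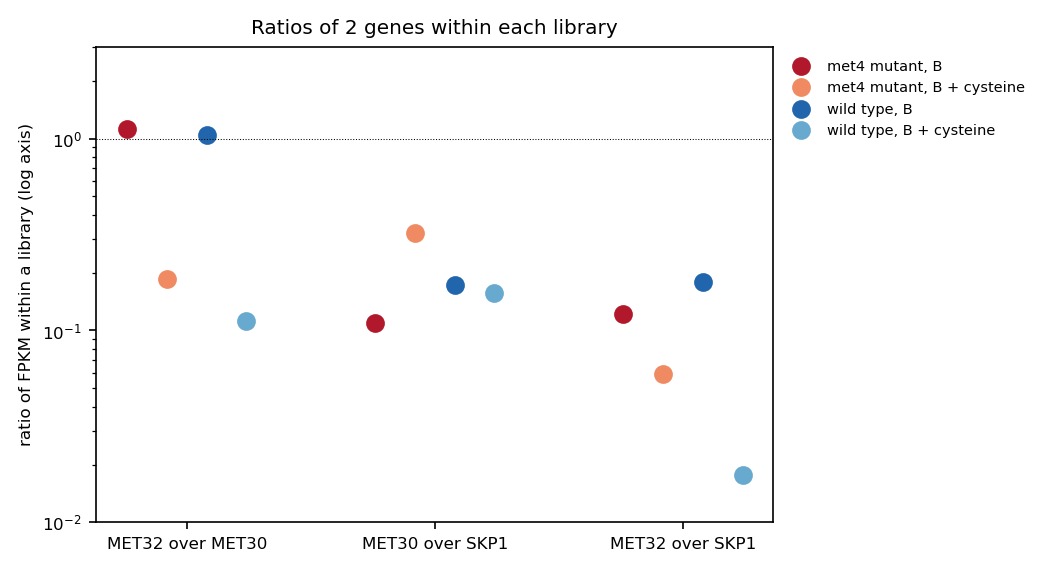
Ratios of FPKM of 2 genes within a library, on a log axis, for the met4 mutant and the wild type in B medium and B medium with cysteine, 1 library per point. MET32 over MET30 is 1.12 and 1.05 in the B medium libraries of the mutant and the wild type and 0.185 and 0.112 with cysteine, while MET30 over SKP1 spans 0.109 to 0.321 in the mutant and 0.157 to 0.172 in the wild type.

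Other SCF subunits and F-box proteins gave 20 rows. Between the media in the mutant 2 of these 20 were at least 2-fold higher and 1 lower, against 13.3% and 12.1% of all rows (median 0.05, or -0.03 with TPM scaling, all rows 0.04). Wild-type cells had 3 higher and 2 lower, against 23.6% and 13.0% of all rows (median -0.12, all rows 0.19), and with TPM scaling 1 was higher and 3 lower. Between the strains in B medium 2 were higher in the mutant and 2 lower (median 0.19, all rows -0.27), against 10.5% and 24.9% of all rows. With TPM scaling 15 of the 20 were higher and 0 lower in that comparison (median 1.32), a scaling that moved the median of all rows to 0.87. CDC53, the cullin of SCF in budding yeast, had 63.6 and 33.6 FPKM in the mutant in B medium and with cysteine and 60.1 and 32.7 FPKM in the wild type, differences of 0.90 and 0.86. The RING subunit row rbx1, named for its role after its values were seen, had 128 and 116 FPKM in the mutant and 105 and 130.04 FPKM in the wild type. On the deposited scale, the largest strain differences of this list in B medium were those of DIA2, which acts at replication forks in budding yeast (5.78 FPKM in the mutant and 29.0 FPKM in the wild type, -2.15, or -0.97 with TPM scaling), and of the row for F-box protein YLR352W (222 FPKM in the mutant and 64.2 FPKM in the wild type, 1.77). GRR1, an F-box protein of nutrient sensing, stood at 1.03 in the same comparison. CKS1, a subunit of cyclin-dependent kinase complexes, stood at -1.05 there, but at 0.13 with TPM scaling and at 1.07 with the trend with length subtracted, so its direction depended on the scale.

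Ubiquitin-conjugating enzymes other than CDC34, with polyubiquitin and the activating enzyme UBA1, gave 12 rows. In the mutant 2 of the 12 were at least 2-fold higher and 3 lower between the media, against 13.3% and 12.1% of all rows (median -0.35, all rows 0.04). Wild-type cells had 1 higher and 3 lower, against 23.6% and 13.0% of all rows (median -0.22, all rows 0.19). With so few rows these counts are not set apart from the shares over all rows. UBC7, which serves protein quality control at the endoplasmic reticulum, had 27.1 FPKM in the mutant in B medium and 217 FPKM with cysteine (-2.95), and 199.6 FPKM in wild-type cells in B medium and 458 FPKM with cysteine (-1.19). PEX4, of peroxisome biogenesis, had 43.0 and 149 FPKM in the mutant (-1.77) and 91.2 and 102 FPKM in the wild type (-0.16). On the deposited scale both, like MET30, had their lowest level in the mutant in B medium, while with TPM scaling PEX4 was 0.10 higher there than in the wild type in B medium. Of 8 rows of the NEDD8 pathway and the COP9 signalosome, which attach to cullins or remove their activating tag, 0 passed 2-fold between the media in the mutant and 1, UBC12, did in the wild type (264 and 120.3 FPKM, 1.13), against 25.4% and 36.5% of all rows in either direction. UBC12 was within 2-fold with median-of-ratios scaling (0.93) and with TPM scaling (0.65).

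Cdc48, the segregase that in budding yeast takes Met30 off the SCF complex under cadmium, and its cofactors gave 5 rows. In B medium 3 of these 5 were at least 2-fold higher in the mutant than in the wild type (the median row, CDC48, was at the limit, all rows -0.27): CDC48 with 1088 FPKM in the mutant and 542 FPKM in the wild type, UFD1 with 210.1 and 98.2 FPKM and NPL4 with 227 and 91.5 FPKM. Among all rows 10.5% were at least 2-fold higher in that comparison. The count of 3 became 2 with a pseudocount of 5 FPKM, 4 with upper-quartile scaling and 5 with TPM scaling. With cysteine 0 of 5 passed 2-fold (median -0.32, and 0.47 with TPM scaling). The list's median between the media was 0.46 in the mutant and -0.86 in the wild type, with 1 row, UFD1, at least 2-fold lower in the wild type, against 13.0% of all rows. That count was 2 with upper-quartile scaling, with scaling to rows of at least 600 bases or with the trend with length subtracted, 3 with median-of-ratios scaling and 5 with TPM scaling. The signs of the medians between the media, and of that between the strains in B medium, held under the 4 other scalings tried.

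No row carried the names of the DNA-binding partners CBF1, MET28 or MET31. The bZIP factors found besides zip1 were 5. In the wild type 3 of them were lower by 2-fold or more in B medium than with added cysteine, against 13.0% of all rows: HAC1, of the unfolded protein response (584 and 2679 FPKM, -2.20), GCN4, of amino acid starvation (3204 and 10483 FPKM, -1.71), and YAP1, of oxidative stress (280.2 and 719.7 FPKM, -1.36). CST6, an ATF/CREB activator, was higher (981 and 382 FPKM, 1.36), and within 2-fold with TPM scaling (0.88). Among all rows 23.6% were at least 2-fold higher there. In the mutant CST6 was again at least 2-fold higher in B medium (725 and 255 FPKM) and HAC1 lower (676 and 1682 FPKM, -1.31). These were 1 of 5 rows in each direction, against 13.3% higher and 12.1% lower among all rows. In B medium YAP1 and GCN4 were higher in the mutant than in the wild type, with 981 against 280.2 FPKM (1.80) and 9881 against 3204 FPKM (1.62). That made 2 of 5 at least 2-fold higher and 0 lower, against 10.5% and 24.9% of all rows (median 0.21, all rows -0.27). With TPM scaling 4 were higher.

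Genes that Met4 activates in budding yeast gave 18 rows. In B medium 12 of these were at least 2-fold lower and 2 at least 2-fold higher in the mutant than in the wild type, against 24.9% and 10.5% of all rows (median -1.74, all rows -0.27). With TPM scaling 7 were lower and 5 higher (median -0.55). With cysteine 0 were lower and 1 higher, against 7.41% and 6.85% of all rows (median 0.16, all rows -0.10), and with TPM scaling 0 were lower and 7 higher (median 0.92). Between the media in the mutant 7 were higher in B medium and 2 lower, against 13.3% and 12.1% of all rows (median 0.50, all rows 0.04). Between the wild-type libraries 9 were higher and 1 lower, against 23.6% and 13.0% of all rows (median 1.45, all rows 0.19). The 2 lower ones in the mutant, MET10 of sulfite reduction (23.2 and 127 FPKM, -2.41) and MET1 of siroheme synthesis (44.7 and 125 FPKM, -1.47), shared with MET30 a minimum in the mutant in B medium. On the deposited scale MET5 of sulfite reduction, named after its values were seen, also had its minimum there (27.0 and 44.8 FPKM in the mutant, -0.71). Of the 7 higher ones in the mutant, MET14 (155.9 and 42.6 FPKM, 1.85) and MET2 (410.4 and 116.9 FPKM, 1.80) differed most. The share of all rows with their minimum in that library was not counted. The sulfate permease SUL1 had 27.1 and 11.8 FPKM in the mutant and 1017 and 11.6 FPKM in the wild type, a larger span in the wild type than that of MET32.

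**Figure D5:**
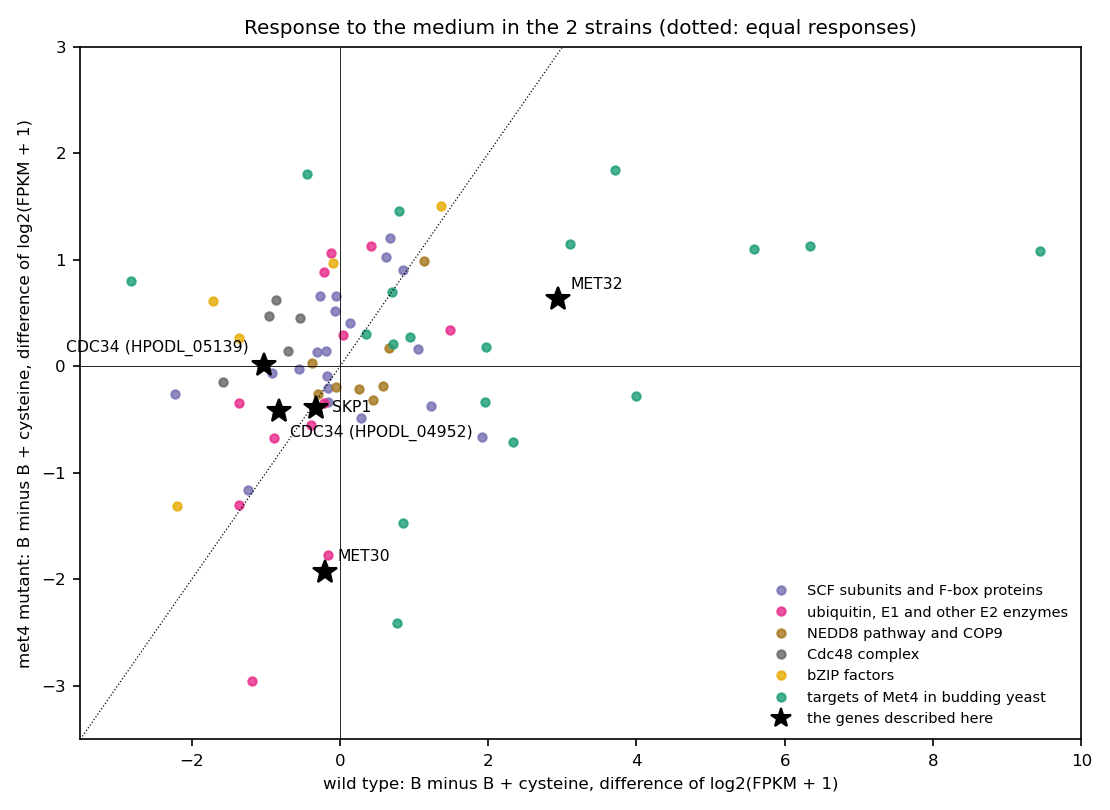
Difference between B medium and B medium with cysteine in the wild type (horizontal axis) and the met4 mutant (vertical axis), both as differences of log2(FPKM + 1), for the genes described here (stars) and the rows of 6 gene lists (coloured points). Points on the dotted line responded equally in both strains. MET32 (0.63 in the mutant, 2.94 in the wild type) lies to the right of it with SUL1 and most other Met4 targets, and MET30 (-1.93 in the mutant, -0.20 in the wild type) lies below the line, while zip1 is not drawn because it is listed at 0 in the mutant.

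The genes most like a member were taken as the 5 described rows, of 4172 with a mean of at least 5 FPKM, at the smallest Euclidean distance between mean-centred log2(FPKM + 1) profiles over the 4 libraries. For MET32 they were YOX1 (a homeobox repressor of the cell cycle in budding yeast, distance 0.113), CDD1 (cytidine deaminase, 0.121), PIR1 (a cell wall mannoprotein, 0.208), NDC80 (a kinetochore protein, 0.274) and POR1 (mitochondrial porin, 0.316). YOX1 had 42.6 and 24.5 FPKM in the mutant in B medium and with cysteine and 109 and 12.7 FPKM in the wild type. For MET30 they were ERG25 (a sterol synthesis enzyme, 0.155), PGM3 (phosphoglucomutase, 0.176), ISY1 (a splicing factor, 0.191), PXL1 (paxillin-like protein 1, 0.242) and dpp1 (a lipid phosphatase, 0.288). ERG25 had 97.6 and 328 FPKM in the mutant and 265 and 284 FPKM in the wild type. For zip1 the 5 smallest distances ran from 2.88 to 4.16, at rows of 216 to 266 bases in length led by the UPF0495 protein YPR010C-A. Large distances were fixed by the 0 values of zip1 in the mutant, from which it had been identified. The search took described rows only, which left out HPODL_05198, the neighbour also listed at 0 in the mutant. Each profile has 4 points, and this likeness is a description alone.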

How the data were processed

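RNA came from a hot phenol extraction and was sequenced on Illumina libraries, as the labels' protocols state. FPKM values in the deposited table are the authors' own. The submitters' processing notes name TopHat, Cuffdiff and Cufflinks 2.1.1 without roles. The sources used here do not give the genome build, annotation release or strand setting. The authors' deposited marks are yes or no at a threshold of 0.05, per the file headers. Groups came from the sample titles and columns from the sample descriptions. Of 5448 rows, 5372 carry a locus tag of the RefSeq table (assembly Hansenula_2), as do all 6 members, at the same positions; 92.9% have a length that is a multiple of 3, so lengths are mostly coding lengths. Numbers of reads were not recovered from the FPKM values.

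Values were used as deposited. Rows with a mean of at least 1 FPKM were compared as differences of log2(FPKM + 1) (Python 3.11.15, pandas 2.3.3), with calls at 2-fold and no test. The trend step and the scalings by median of ratios, upper quartile and rows of at least 600 bases were tested on simulated data. Those data held constant factors and no noise, and TPM scaling was not among the steps tested. Members and lists were chosen with earlier results of these data known. Named were all members, 3 rows on each side of zip1, LEU2, up to 4 rows per list in a comparison and the 5 rows most like zip1, MET32 and MET30. From 6 lists, matched by name or product, 14 rows were dropped because their product is another protein or belongs to another list. Ratios, ranks within a library, rbx1, MET5, the JLP1 row HPODL_00875, MATA1 and the row beside MET30 were chosen after their values were seen. Alternatives were other pseudocounts, filters, scalings, fold limits and removal of the trend with length.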

Additional observations from a re-analysis of the deposited data

Results flagged for a closer look

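In 4 cases a gene's difference had opposite signs in the groups under the same contrast, each with 1 library per group, and the difference was not tested. In each case one or both of the values were within 2-fold. MET32 was lower in the mutant than in the wild type in B medium (-1.36 on the log2 scale) and higher with cysteine (0.95), a difference of -2.31. MET30 stood at -1.45 in B medium and at 0.28 with cysteine in the same contrast, a difference of -1.73. The CDC34 row HPODL_04952 stood at 0.31 and -0.09, a difference of 0.40, but both values were above 0 with median-of-ratios scaling (0.57 and 0.02) and with TPM scaling (1.49 and 0.71). Between the media, the CDC34 row HPODL_05139 stood at 0.02 in the mutant and at -1.03 in the wild type, a difference of 1.05, while the mutant's value was -0.04 with median-of-ratios scaling and -0.07 with TPM scaling, of the same sign as the wild type's.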

How the results depend on the processing

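Each of the 26 differences of a member was recomputed under 9 alternatives with the limit kept at 2-fold, and of these 234 values 221 stayed on the same side of it, 10 came to pass it, 3 no longer did (zip1 between the media in the wild type, and MET32 and MET30 between the strains in B medium, each with TPM scaling), and 0 called values changed sign. Moving the limit to a fold of 1.5 or 4 was tried as well. For the strains with cysteine, the count of members past the limit was 0 as reported, 1 with median-of-ratios scaling, upper-quartile scaling, scaling to rows of at least 600 bases or the length trend subtracted (MET32 each time), and 2 with TPM scaling or a fold of 1.5. With a fold of 1.5 the count between the media in the mutant was 2. With a fold of 4 the counts were 0 for the mutant's media, 1 for the wild type's media (MET32), 0 for the strains in B medium and 1 for the difference of responses (MET32). With TPM scaling the calls between the strains in B medium were no longer MET32 and MET30 but both CDC34 rows (1.49 and 2.30).

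Over all rows, the counts at least 2-fold higher and lower ranged over the 9 alternatives from 596 to 821 and from 571 to 715 for the mutant's media, from 753 to 1296 and from 629 to 1125 for the wild type's media, from 486 to 2369 and from 336 to 1364 for the strains in B medium, from 272 to 1478 and from 118 to 418 for the strains with cysteine, and from 530 to 996 and from 671 to 1227 for the difference of responses. The share of higher among called rows between the strains in B medium was 29.7% as deposited, 44.2% with median-of-ratios, 47.2% with upper-quartile, 42.7% with scaling to rows of at least 600 bases and 87.6% with TPM scaling. The causes were not tested. Depth is unknown, so how far counting error limits these values cannot be given. No paired analysis was possible because each group holds 1 library.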
